A study of Homo sapiens with 15 samples.

Results

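SRC, YES1, FYN and LYN are the SRC family kinases described here in the A375 melanoma line, together with their inhibitory kinase CSK, the focal adhesion kinases PTK2 and PTK2B and the adhesion substrates BCAR1, PXN and CAV1. These 10 genes were chosen by name, as SRC family kinases that saracatinib targets and A375 expresses, and the kinases and adhesion proteins around them. The choice was made with earlier results of these data known. All 10 had a value in every library and passed the filter on low values, which their choice as expressed genes makes likely. The tables hold 16768 gene symbols for the experiment with saracatinib and 16295 for the untreated one.

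RNA was sequenced from 15 libraries of A375, an established human melanoma line, in 5 groups of 3. In the first experiment, cells overexpressing VAV1 received saracatinib or vehicle, and cells with the empty vector received vehicle. In the second, cells overexpressing RAC1 P29S and cells with the empty vector were untreated. VAV1 loads RAC-type GTPases with GTP, RAC1 P29S is an activated form of RAC1 found in melanoma, and saracatinib inhibits SRC family kinases. The labels give no dose, no time of treatment and no promoter for the transgenes, and no group combined the empty vector with saracatinib, so an effect of the inhibitor on cells without VAV1 was not measured. Triplicates are described as biological, but separate transductions are not named, so the variation among the 3 cultures per group may be technical. The p-values reflect only this variation, pooled over all groups of a fit and drawn by limma toward that of other genes.

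SRC family kinases are anchored at the inner face of the plasma membrane and are held inactive when CSK phosphorylates a tyrosine in their tail. At focal adhesions, where integrins meet the actin cytoskeleton, SRC works with the focal adhesion kinase encoded by PTK2, and the pair phosphorylates the scaffolds p130Cas, encoded by BCAR1, and paxillin, encoded by PXN. Phosphorylated p130Cas and paxillin recruit adaptors such as CRK and the exchange factor DOCK1, which activates RAC1. CAV1 encodes caveolin-1, the coat protein of membrane invaginations called caveolae and a long-known SRC substrate. VAV1 is itself switched on by tyrosine phosphorylation, including by SRC family kinases. RNA levels say nothing of phosphorylation or kinase activity.

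The deposited values are the log2 of a normalized count plus 1 per gene, called log2 values here. Fold changes are differences of these values and understate the change of low genes. A gene was called where the Benjamini-Hochberg adjusted p of limma's moderated test, fitted over all genes, was under 0.05. Error values after a fold change are SE, and those after a level are SD with n = 3. Levels were not compared between genes, since the values are not per length.

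The libraries held 14443918 to 16262759 normalized counts. Transgene levels matched the titles. VAV1 averaged 14.12 ± 0.03 in VAV1 cells with saracatinib, 13.91 ± 0.04 in VAV1 cells with vehicle and 2.22 ± 0.30 in empty-vector cells with vehicle. RAC1 averaged 14.93 ± 0.03 in the RAC1 P29S libraries, whose genotype field reads empty vector against their titles, and 11.88 ± 0.02 in the untreated empty-vector libraries. Of 11 melanoma and melanocyte markers, 8 averaged at least 10 normalized counts in VAV1 cells with either treatment, in empty-vector cells with vehicle and in RAC1 P29S cells, and 9 did in untreated empty-vector cells. SOX10, the neural crest lineage factor, was at 10.80 ± 0.04 in VAV1 cells with vehicle and at 12.88 ± 0.03 in their empty-vector controls. The pigment regulator MITF ran the other way, rising by 1.57 ± 0.11 with VAV1 (limma adjusted p = 1.11e-07). It was the 1 marker of the 8 tested that rose with VAV1, and 5 fell (median -0.80). Of all genes tested, 23.6% rose and 20.1% fell. The pigment gene MLANA averaged 3.69 ± 3.96 normalized counts in VAV1 cells with vehicle and 6.22 ± 4.41 in empty-vector cells with vehicle. These libraries overlapped, and MLANA was too low to be tested.

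**Figure D1:**
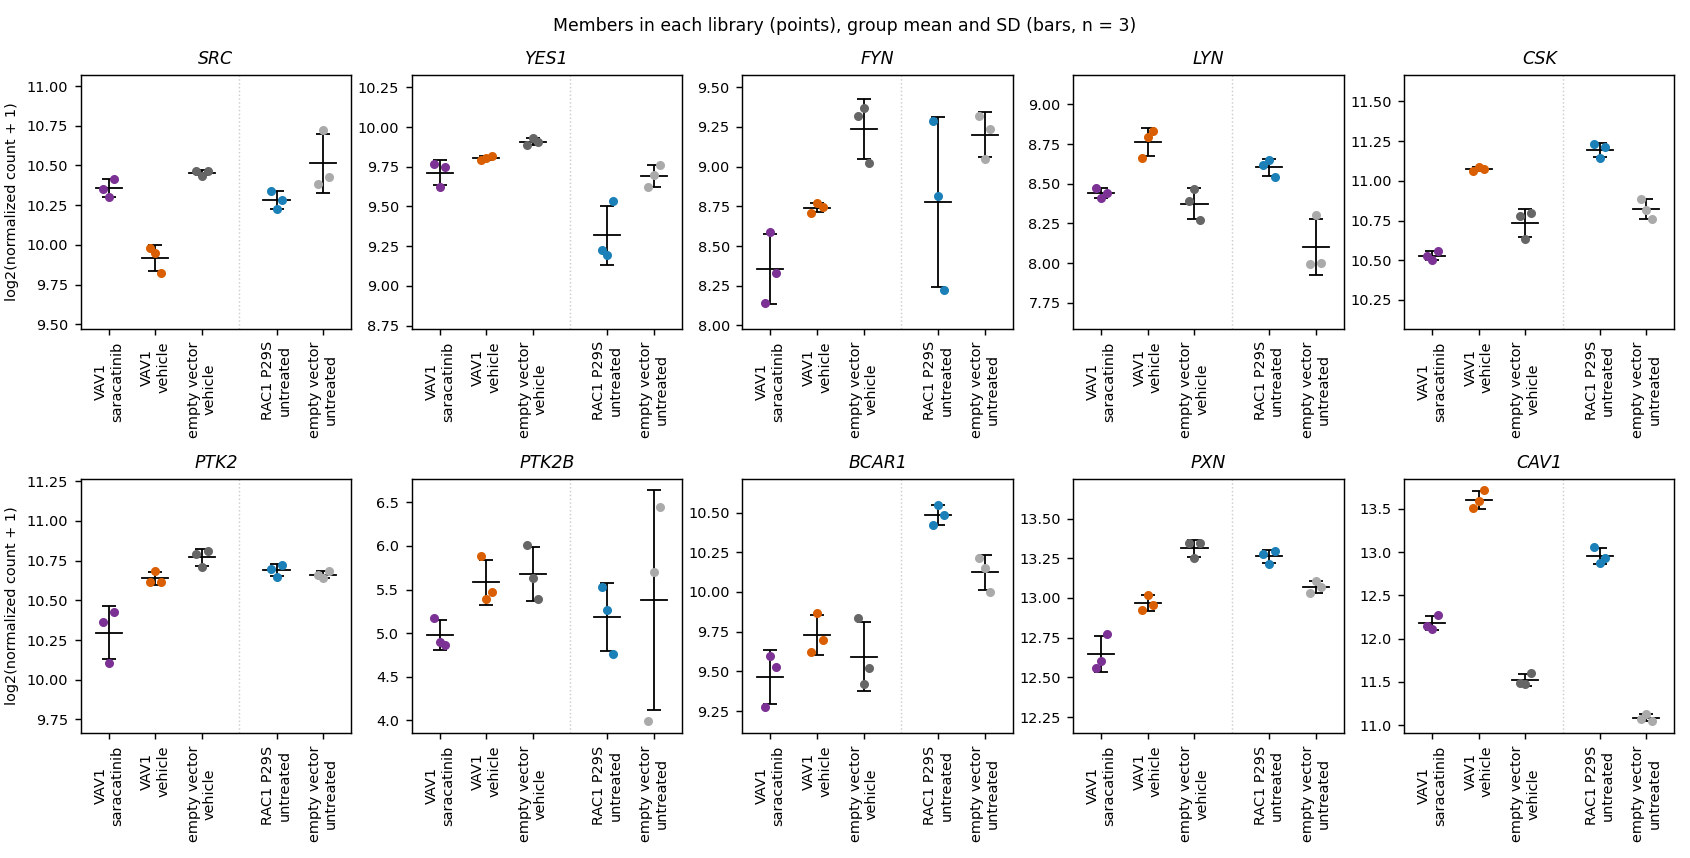
Log2 values (vertical axis, log2 of normalized count plus 1, with its own range for each gene) of the 10 genes in each of the 15 libraries, with the group mean and SD. CAV1 stood between 13.51 and 13.71 in VAV1 cells with vehicle and between 11.48 and 11.61 in empty-vector cells with vehicle, and the dotted line separates the experiments, which were normalized separately.

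CAV1 changed by more than the other 9 genes in the comparisons with VAV1 and with RAC1 P29S. Its log2 values were 13.51, 13.60 and 13.71 in VAV1 cells with vehicle, against 11.48, 11.48 and 11.61 in empty-vector cells with vehicle. Every VAV1 library lay above every control library. The difference was 2.08 ± 0.06 (4.24-fold, limma adjusted p = 1.23e-11), and 3.20% of the 14410 genes tested changed by more in size. In these bulk libraries, a change in the share of cells expressing a gene and a change in RNA per cell cannot be told apart. In RAC1 P29S cells CAV1 lay at 13.06, 12.87 and 12.94, against 11.08, 11.13 and 11.05 in untreated empty-vector cells. These groups did not overlap either, and the difference was 1.87 ± 0.05 (3.65-fold, limma adjusted p = 6.35e-09). The VAV1 effect minus the RAC1 P29S effect on CAV1 was 0.21 (95% interval 0.03 to 0.39, limma adjusted p = 0.0995), which missed the threshold.

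With saracatinib CAV1 fell in VAV1 cells but stayed above the empty vector. Its log2 values were 12.15, 12.12 and 12.27 with saracatinib, below all 3 VAV1 libraries with vehicle. The difference was -1.43 ± 0.06 (a fold change of 0.372, limma adjusted p = 1.07e-09), and 2.76% of genes changed by more in size. Against empty-vector cells with vehicle, VAV1 cells with saracatinib were still higher by 0.66 ± 0.06 (1.58-fold, limma adjusted p = 1.56e-06). The VAV1 and saracatinib comparisons share the VAV1 libraries with vehicle, so their opposite signs are not independent of each other.

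CAV1 (ENSG00000105974) lies on the plus strand of chromosome 7, from 116524785 to 116561184 in GRCh38, in GENCODE release 29. PXN (ENSG00000089159) lies on the minus strand of chromosome 12, from 120210439 to 120265771. The RefSeq promoters of these genes are shown because they moved the same way under saracatinib and opposite ways under VAV1. RefSeq lists 3 starts for CAV1 and 2 for PXN, and the window of the outermost start is printed, from 250 bases before it to 50 after it. Capitals would mark a match to a searched motif, and neither window holds one. The CAV1 window is chr7:116524759-116525058 (GRCh38.p14, plus strand, start at 116525009) and the PXN window chr12:120265681-120265980 (minus strand, start at 120265730).
CAV1: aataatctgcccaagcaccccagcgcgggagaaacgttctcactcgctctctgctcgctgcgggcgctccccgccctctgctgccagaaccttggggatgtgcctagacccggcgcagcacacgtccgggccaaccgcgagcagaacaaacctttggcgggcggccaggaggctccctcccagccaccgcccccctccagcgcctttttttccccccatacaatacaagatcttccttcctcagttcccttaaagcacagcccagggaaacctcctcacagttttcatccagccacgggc
PXN: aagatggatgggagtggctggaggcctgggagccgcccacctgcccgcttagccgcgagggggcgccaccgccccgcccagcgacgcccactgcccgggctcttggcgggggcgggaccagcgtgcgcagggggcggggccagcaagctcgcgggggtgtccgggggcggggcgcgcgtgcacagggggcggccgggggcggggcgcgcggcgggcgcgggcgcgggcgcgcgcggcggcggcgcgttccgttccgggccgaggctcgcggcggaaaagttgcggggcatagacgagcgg

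The motifs searched on both strands were GGAATG, read by TEAD factors, TGANTCA, read by AP-1, and the CArG box of SRF. Windows of 6 of the 10 genes, 16 in all, were in the table. They held 2 matches, which do not overlap each other. At the inner PXN start, at 120250163 and inside the gene, 1 GGAATG match begins 67 bases upstream on the strand opposite to the gene. At the outermost BCAR1 start, 1 TGANTCA match begins 64 bases upstream. None of the 3 CAV1 windows holds any of the 3 motifs, which says nothing of whether a factor binds there. Of 35116 promoter windows of the same length, 14% hold GGAATG, 7.71% TGANTCA and 1.29% a CArG box.

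**Figure D2:**
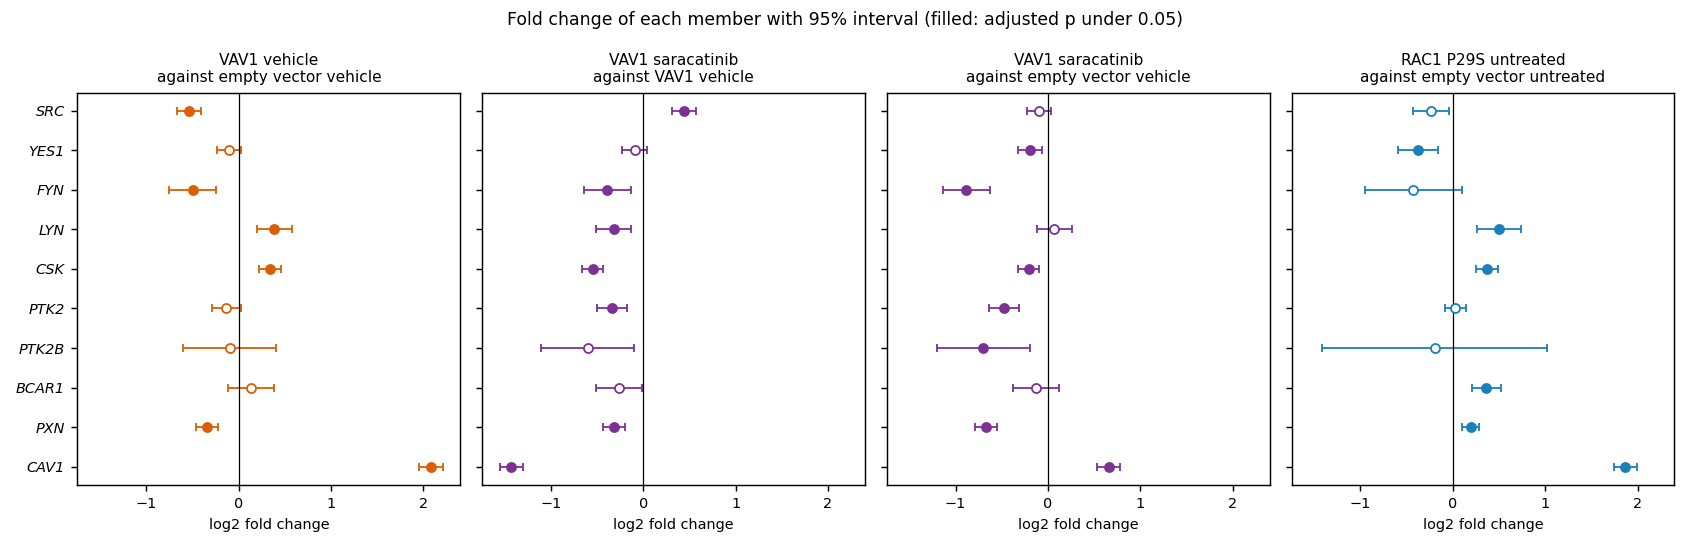
Log2 fold change (horizontal axis) with its 95% interval for each of the 10 genes in 4 comparisons, with filled points for an adjusted p under 0.05. CAV1 stands at 2.08 with VAV1, -1.43 with saracatinib, 0.66 for VAV1 with saracatinib against the empty vector, and 1.87 with RAC1 P29S.

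Among the kinases of the SRC family, SRC and FYN were lower and LYN was higher in VAV1 cells than in empty-vector cells with vehicle. SRC, the founding member of the family, had log2 values of 9.98, 9.95 and 9.82 in VAV1 cells, against 10.47, 10.44 and 10.46 in empty-vector cells. The groups did not overlap, and SRC fell by 0.54 on the log2 scale (SE 0.06, limma adjusted p = 9.04e-06). FYN lay at 8.71, 8.77 and 8.75 with VAV1, against 9.32, 9.37 and 9.02 in the controls. It fell by 0.50 (SE 0.12, limma adjusted p = 0.00384), with no overlap. LYN, which haematopoietic cells and also many solid tumour cells express, lay at 8.66, 8.80 and 8.83 with VAV1, against 8.39, 8.47 and 8.27. It rose by 0.39 ± 0.09 (limma adjusted p = 0.00278), again with no overlap. YES1, a widely expressed member, was at 9.81 ± 0.01 in VAV1 cells and 9.91 ± 0.02 in the controls. Its difference of -0.10 (95% interval -0.23 to 0.03, limma adjusted p = 0.199) missed the threshold although the libraries did not overlap. The SE of 0.06 pools the spread of every group in the fit, and the YES1 SD in VAV1 cells with saracatinib was 0.08.

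In all, 6 of the 10 genes passed in the VAV1 comparison, 3 higher and 3 lower, against 43.7% of all genes tested, 23.6% higher and 20.1% lower. Groups did not overlap for 8 of the 10, against 52.7% of all genes. The median log2 fold change of the 10 was -0.10, and that of all genes 0.02. CSK rose by 0.34 ± 0.05 (limma adjusted p = 0.000206), with values of 11.06, 11.09 and 11.07 in VAV1 cells, against 10.78, 10.63 and 10.80. PXN fell by 0.35 (SE 0.05, limma adjusted p = 0.000194), with values of 12.92, 13.02 and 12.96, against 13.34, 13.25 and 13.34. Neither gene overlapped between the groups. PTK2 at -0.13 ± 0.07, PTK2B at -0.10 ± 0.23 and BCAR1 at 0.14 ± 0.11 did not pass, and the libraries of PTK2B and BCAR1 overlapped.

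RAC1 P29S and VAV1 cells shared the higher LYN and CSK, each against its own empty vector. LYN lay at 8.62, 8.65 and 8.55 in RAC1 P29S cells, against 7.99 to 8.30 in untreated empty-vector cells. It rose by 0.50 ± 0.11 (limma adjusted p = 0.00539). CSK lay at 11.23, 11.14 and 11.21, against 10.89, 10.82 and 10.76, and rose by 0.37 ± 0.05 (limma adjusted p = 0.000486). For both genes every RAC1 P29S library was above every control library. The difference between the VAV1 and RAC1 P29S effects was -0.12 for LYN (95% interval -0.39 to 0.16) and -0.04 for CSK (95% interval -0.19 to 0.12). Neither passed, which does not show that the effects are alike.

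SRC and FYN did not pass with RAC1 P29S. SRC lay at 10.34, 10.22 and 10.28 in RAC1 P29S cells, against 10.38, 10.72 and 10.43 in the controls, with no overlap and a difference of -0.23 ± 0.09 (limma adjusted p = 0.0686). It passed without empty vector untreated replicate 1 (adjusted p = 0.0368, range 0.0368 to 0.198 over the libraries left out) and with all 15 libraries in the fit (adjusted p = 0.0236, range 0.0236 to 1 over the other settings). FYN spread widely among the RAC1 P29S libraries, at 9.29, 8.82 and 8.22, against 9.32, 9.05 and 9.24 in the controls. Its SD of 0.54 was exceeded by 0.213% of genes of like level in that group, and its difference of -0.43 ± 0.23 missed the threshold (limma adjusted p = 0.202). Without RAC1 P29S replicate 1 the difference was -0.68 (adjusted p = 0.0168), and without replicate 3 it was -0.15 (adjusted p = 0.507), the ends of the range over the 6 libraries left out.

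YES1 was lower with RAC1 P29S, at 9.23, 9.19 and 9.53, against 9.62, 9.70 and 9.76 in untreated empty-vector cells. The groups did not overlap, and YES1 fell by 0.38 (SE 0.10, limma adjusted p = 0.0134). The call was lost without RAC1 P29S replicate 1 or 2 (adjusted p = 0.0543 and 0.0525, range 0.00286 to 0.0543 over the 6 libraries) and without limma's trend and robust estimation (adjusted p = 0.0546). The VAV1 effect minus the RAC1 P29S effect on YES1 was 0.27 ± 0.11 (limma adjusted p = 0.107), and it passed without RAC1 P29S replicate 3, at 0.38 (adjusted p = 0.0120, range 0.0120 to 0.238 over the 15 libraries).

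The adhesion scaffolds were both higher with RAC1 P29S. BCAR1 lay at 10.42, 10.55 and 10.48 in RAC1 P29S cells, against 10.21, 10.15 and 10.00 in the controls. It rose by 0.36 ± 0.07 (limma adjusted p = 0.00310) with no overlap. PXN lay at 13.27, 13.22 and 13.30, against 13.03, 13.11 and 13.07, and rose by 0.19 ± 0.04 (limma adjusted p = 0.00492), also with no overlap. The PXN call was lost without limma's trend and robust estimation (adjusted p = 0.0579, range 0.00237 to 1 over the settings). PTK2 differed by 0.03 (95% interval -0.09 to 0.14) and PTK2B by -0.19 (95% interval -1.41 to 1.02), neither past the threshold. In all 6 of the 10 genes passed with RAC1 P29S, 5 higher and 1 lower, against 31.1% of the 14036 genes tested. The share of genes called higher was 15.6% over all genes. Groups did not overlap for 7 of the 10, against 45% of all genes.

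PXN was the gene of the 10 that separated VAV1 from RAC1 P29S. Its VAV1 effect of -0.35 minus its RAC1 P29S effect of 0.19 came to -0.54 ± 0.07 (limma adjusted p = 7.35e-05). In VAV1 cells all 3 libraries were below their controls, and in RAC1 P29S cells all 3 were above theirs. This was 1 call among the 10 genes, against 15.8% of the 13810 genes tested in both experiments and 7.7% called lower. SRC had the next smallest adjusted p, at -0.31 ± 0.11 (limma adjusted p = 0.0611). It passed with each of 4 other scalings (adjusted p from 0.0319 to 0.0472, range 0.0319 to 1 over all settings), and without empty vector untreated replicate 2 (adjusted p = 0.00446, range 0.00446 to 0.151). BCAR1 at -0.23 (95% interval -0.54 to 0.09), PTK2 at -0.16 (-0.36 to 0.04) and FYN at -0.07 (-0.65 to 0.51) did not pass. PXN shares 918 exonic bases with the antisense gene PXN-AS1 in GENCODE, and the sources used here do not state whether the quantification used strand.

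**Figure D3:**
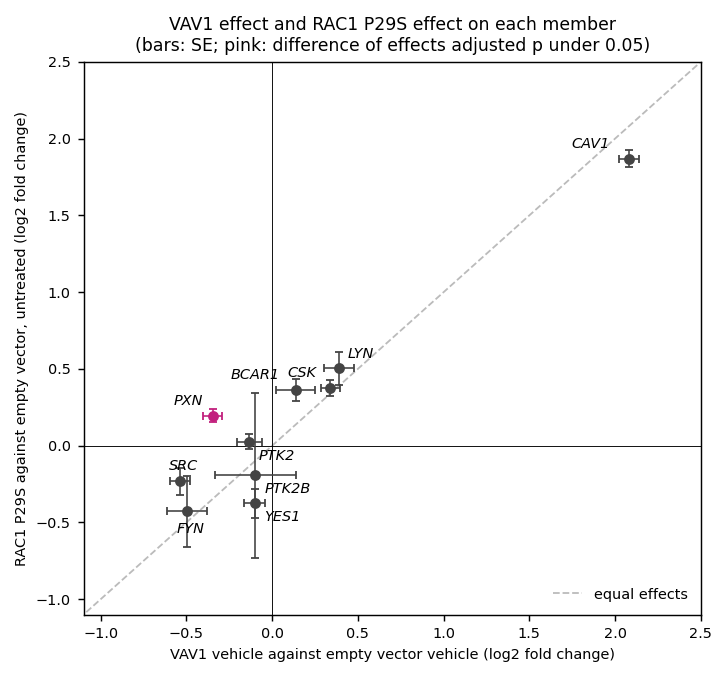
Log2 fold change of each of the 10 genes with VAV1 (horizontal axis) and with RAC1 P29S (vertical axis), each against its own empty vector, with SE bars; the dashed line marks equal effects. PXN, in pink, lies at -0.35 and 0.19, and CAV1 at 2.08 and 1.87.

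Saracatinib in VAV1 cells was followed by lower RNA of most of these genes and higher SRC. Of the 10, 6 fell, 1 rose and 3 did not pass, a share of 7 against 37.3% of all genes in either direction, and of 6 against 19.1% called lower. The libraries with saracatinib and with vehicle did not overlap for any of the 10 genes, 9 below and 1 above, against 49.4% of all genes. The median log2 fold change of the 10 was -0.33, and that of all genes -0.01.

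SRC had log2 values of 10.35, 10.30 and 10.42 in VAV1 cells with saracatinib, against 9.98, 9.95 and 9.82 with vehicle. It rose by 0.44 ± 0.06 (limma adjusted p = 7.62e-05). Against empty-vector cells with vehicle, VAV1 cells with saracatinib differed in SRC by -0.10 (95% interval -0.23 to 0.03, limma adjusted p = 0.206). This missed the threshold although every library with saracatinib lay below every empty-vector library. LYN lay at 8.47, 8.41 and 8.44 with saracatinib, against 8.66, 8.80 and 8.83 with vehicle, and fell by 0.32 (SE 0.09, limma adjusted p = 0.0107). Against the empty vector it differed by 0.07 (95% interval -0.12 to 0.26, limma adjusted p = 0.575). For SRC and LYN, then, VAV1 cells with saracatinib were within a log2 difference of 0.26 of the empty vector at the outer bound of both intervals.

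CSK fell past its empty-vector level. It lay at 10.53, 10.50 and 10.56 with saracatinib, against 11.06, 11.09 and 11.07 with vehicle, and fell by 0.55 (SE 0.05, limma adjusted p = 3.95e-06). Against empty-vector cells it was lower too, by -0.21 ± 0.05 (limma adjusted p = 0.00687). SRC and its inhibitory kinase had opposite signs in both comparisons. SRC stood at -0.54 and CSK at 0.34 with VAV1, and SRC at 0.44 and CSK at -0.55 with saracatinib. The comparisons share the VAV1 libraries with vehicle, so the reversal of each gene is not independent of its first change. No test compared SRC with CSK.

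FYN and PXN fell further with saracatinib from their lower level in VAV1 cells. PXN lay at 12.56, 12.60 and 12.77 with saracatinib, against 12.92, 13.02 and 12.96 with vehicle, and fell by 0.32 (SE 0.05, limma adjusted p = 0.000455). FYN lay at 8.14, 8.59 and 8.33, against 8.71, 8.77 and 8.75, and fell by 0.39 (SE 0.12, limma adjusted p = 0.0190). The FYN call was lost without VAV1 vehicle replicate 2, saracatinib replicate 1 or saracatinib replicate 3 (adjusted p = 0.0550, 0.0862 and 0.0514, range 0.00487 to 0.0862 over the 9 libraries). It was also lost without limma's trend and robust estimation (adjusted p = 0.0524) and with all 15 libraries in the fit (adjusted p = 0.128). Against empty-vector cells, VAV1 cells with saracatinib were lower in FYN by -0.88 ± 0.12 (a fold change of 0.542, limma adjusted p = 4.94e-05) and in PXN by -0.67 ± 0.05 (0.630, limma adjusted p = 5.75e-07).

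PTK2, which encodes focal adhesion kinase, passed in both comparisons that include saracatinib and in neither comparison of a transgene with its empty vector. Both comparisons with saracatinib share the same saracatinib libraries, so they are not independent. PTK2 lay at 10.36, 10.11 and 10.42 in VAV1 cells with saracatinib, against 10.62, 10.68 and 10.62 with vehicle, and fell by 0.34 (SE 0.07, limma adjusted p = 0.00277). Its SD of 0.17 with saracatinib was exceeded by 5.57% of genes of like level in that group. With 1 library left out at a time, the difference ranged from -0.40 to -0.24 and stayed past the threshold. Against empty-vector cells with vehicle the difference was -0.47 ± 0.07 (limma adjusted p = 0.000200). In RAC1 P29S cells PTK2 lay between 10.65 and 10.72, against 10.64 to 10.69 in the controls, and the groups overlapped.

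PTK2B, the PTK2 relative also called PYK2, had few counts, averaging 30.7 normalized counts in VAV1 cells with saracatinib, 47.4 in VAV1 cells with vehicle and 51.0 in empty-vector cells. Its log2 values were 5.17, 4.90 and 4.86 with saracatinib, against 5.88, 5.39 and 5.47 with vehicle. The groups did not overlap, and the difference of -0.60 ± 0.23 missed the threshold (limma adjusted p = 0.0597). It passed with quantile normalization, without trend and robust estimation, and with a replicate block (adjusted p = 0.0234, 0.0426 and 0.0485, range 0.0234 to 1 over the settings). In the untreated empty-vector libraries PTK2B ranged from 3.99 to 6.45. BCAR1 lay at 9.27, 9.59 and 9.52 with saracatinib, against 9.62, 9.87 and 9.70, a difference of -0.26 ± 0.11 (limma adjusted p = 0.0884). It passed without empty vector vehicle replicate 1 (adjusted p = 0.0441, range 0.0441 to 0.300 over the 9 libraries). That library is in neither group compared, and its omission left the difference at -0.26 and lowered the SE to 0.09. YES1 differed by -0.09 (95% interval -0.23 to 0.04, limma adjusted p = 0.259).

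VAV1 cells with saracatinib differed from empty-vector cells with vehicle in 7 of the 10 genes, 1 higher and 6 lower, against 43.4% of all genes called and 21% called lower. Groups did not overlap for 8 of the 10, against 52.8% of all genes. The 6 were YES1, FYN, CSK, PTK2, PTK2B and PXN. YES1 at -0.20 ± 0.06 (limma adjusted p = 0.0199) lost its call without empty vector vehicle replicate 2 or 3 or saracatinib replicate 2 (range 0.0239 to 0.0849 over the 9 libraries). PTK2B at -0.70 ± 0.23 (limma adjusted p = 0.0278) lost its call without empty vector vehicle replicate 1 or 2 or saracatinib replicate 2 or 3 (range 0.0213 to 0.119). With all 15 libraries in the fit both calls were lost (adjusted p = 0.0519 for YES1 and 0.203 for PTK2B). This comparison shares libraries with both the VAV1 and the saracatinib comparison.

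The other genes of the caveolar coat followed CAV1 in part. CAV2, the partner that forms hetero-oligomers with caveolin-1, averaged 9.74 ± 0.16 in VAV1 cells with vehicle and 8.23 ± 0.21 in empty-vector cells. It rose by 1.51 ± 0.11 with VAV1 (limma adjusted p = 1.37e-07) and by 1.43 ± 0.11 with RAC1 P29S (limma adjusted p = 6.92e-06), and fell by 0.75 with saracatinib (SE 0.11, limma adjusted p = 0.000136). CAVIN1, which is needed to form caveolae, rose by 0.31 ± 0.04 with VAV1 and by 0.43 ± 0.05 with RAC1 P29S, and fell by 0.42 (SE 0.04) with saracatinib. CAVIN3 ran the other way, at -0.40 ± 0.09 with VAV1, 0.50 ± 0.09 with saracatinib and -0.49 ± 0.12 with RAC1 P29S, each past the threshold. Of the 7 caveolar genes other than CAV1, 5 were tested. With VAV1, 3 rose and 2 fell, a median of 0.28, where 23.6% of all genes rose, 20.1% fell and the median was 0.02. With RAC1 P29S, 3 rose and 1 fell, a median of 0.43, where 15.6% of all genes rose, 15.5% fell and the median was 0.00. With saracatinib, 1 rose and 2 fell, a median of 0.00, where 18.3% of all genes rose, 19.1% fell and the median was -0.01.

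**Figure D4:**
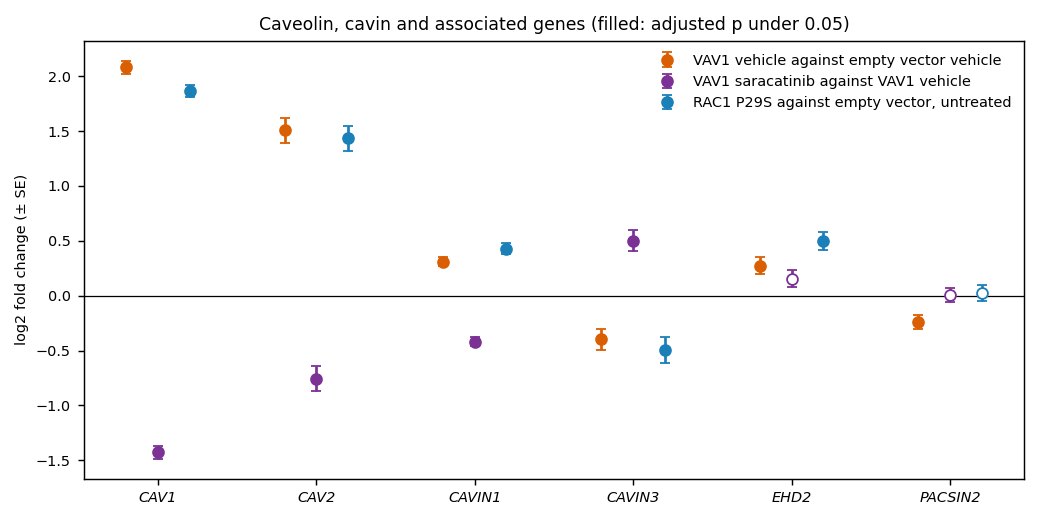
Log2 fold change (vertical axis, ± SE) of CAV1 and the 5 tested caveolar genes with VAV1, with saracatinib in VAV1 cells and with RAC1 P29S, with filled points for an adjusted p under 0.05. CAV2 stands at 1.51, -0.75 and 1.43, and CAVIN3 at -0.40, 0.50 and -0.49; the first and second comparisons share the VAV1 libraries with vehicle.

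The listed core focal adhesion genes rose more often than they fell with VAV1 and RAC1 P29S. Like the other companion lists, this list was written with earlier results of these data known. Of 22 tested, 11 rose and 4 fell with VAV1 (median 0.25), where 23.6% of all genes rose and 20.1% fell (median 0.02). With RAC1 P29S, 12 rose and 1 fell (median 0.18), where 15.6% of all genes rose and 15.5% fell (median 0.00). VCL, encoding the talin- and actin-binding vinculin, rose by 0.66 ± 0.05 with VAV1 (limma adjusted p = 9.83e-08) and by 1.25 ± 0.05 with RAC1 P29S (limma adjusted p = 4.78e-08). The VAV1 effect minus the RAC1 P29S effect on VCL was -0.59 ± 0.06 (limma adjusted p = 8.95e-06). The actin crosslinkers ACTN4 and ACTN1 fell by 0.37 (SE 0.05) and 0.27 (SE 0.05) with VAV1 and rose by 0.19 ± 0.05 and 0.17 ± 0.06 with RAC1 P29S (limma adjusted p of the difference 5.36e-05 and 0.00145). The LIM protein genes ZYX, TRIP6 and TES rose with both, ZYX by 0.41 ± 0.07 with VAV1 and 0.62 ± 0.06 with RAC1 P29S.

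With saracatinib 9 of the 22 core genes fell and 1 rose (median -0.27), where 19.1% of all genes fell and 18.3% rose (median -0.01). VCL fell by 0.32 (SE 0.05), ZYX by 0.44 (SE 0.07) and VASP, an actin polymerase regulator, by 0.35 (SE 0.06). LPXN, the paxillin relative leupaxin, rose by 0.53 ± 0.07 (limma adjusted p = 0.000105), in contrast to PXN itself at -0.32 ± 0.05. No test compared LPXN with PXN.

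Of 19 tested adaptors of p130Cas and paxillin, 8 fell and 3 rose with VAV1 (median -0.08), where 20.1% of all genes fell and 23.6% rose. With RAC1 P29S, 4 fell and 2 rose (median -0.09), a share near the 31.1% of all genes called. NEDD9, a p130Cas family member, fell by 1.43 with VAV1 (SE 0.16, limma adjusted p = 1.25e-05) and by 0.60 with RAC1 P29S (SE 0.10, limma adjusted p = 0.000979). DOCK1 and ELMO1, which together form a RAC exchange factor, fell by 0.45 (SE 0.05) and 0.81 (SE 0.14) with VAV1 and by 0.29 (SE 0.07) and 0.80 (SE 0.14) with RAC1 P29S. ASAP1, an ARF GTPase-activating protein at focal adhesions, rose by 0.66 ± 0.07 with VAV1 and by 0.66 ± 0.08 with RAC1 P29S, and fell by 0.88 with saracatinib (SE 0.07, limma adjusted p = 2.78e-07). With saracatinib 3 of the 19 fell and 1 rose, a share below the 37.3% of all genes called.

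Among phosphatases and other regulators of the SRC family, 3 of 14 tested rose and 6 fell with VAV1 (median 0.01), where 23.6% of all genes rose and 20.1% fell. Of 13 tested with RAC1 P29S, 2 rose and 2 fell (median -0.09), a share near the 31.1% of all genes called. PTPRF, a receptor-type tyrosine phosphatase of cell contacts, rose by 0.88 ± 0.06 with VAV1 (limma adjusted p = 2.64e-08) and by 1.38 ± 0.05 with RAC1 P29S (limma adjusted p = 2.41e-08). SRCIN1, which recruits CSK to restrain SRC, fell by 0.92 with VAV1 (SE 0.17, limma adjusted p = 0.000703). In RAC1 P29S cells SRCIN1 averaged 6.90 ± 0.12, against 6.98 ± 0.09 in untreated empty-vector cells, and the libraries overlapped. PTPRJ at -0.63, PTPN11 at 0.30 and PTPN2 at 0.49 had smaller adjusted p than SRCIN1 with VAV1 (limma adjusted p = 9.16e-07, 0.000196 and 0.000416). PTPRA, a phosphatase that can remove the inhibitory phosphate from SRC, fell by 0.29 with VAV1 (SE 0.08) and rose by 0.38 ± 0.08 with saracatinib (limma adjusted p = 0.00148). With saracatinib 3 of 14 regulators rose and 7 fell (median -0.22), where 18.3% of all genes rose and 19.1% fell.

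Of 17 further SRC substrates, 5 rose and 6 fell with VAV1 (median -0.04), 5 rose and 4 fell with RAC1 P29S (median -0.01), and 5 rose and 5 fell with saracatinib (median 0.03). The shares of all genes called in these comparisons were 43.7% with VAV1, 31.1% with RAC1 P29S and 37.3% with saracatinib. The ephrin receptor gene EPHA2 rose by 0.76 ± 0.05 with VAV1 and 1.51 ± 0.05 with RAC1 P29S, and fell by 0.62 with saracatinib (SE 0.05). The actin-binding scaffolds AFAP1 and SH3PXD2A fell by 0.94 (SE 0.06) and 0.83 (SE 0.06) with VAV1, and rose by 0.30 ± 0.06 and 0.26 ± 0.06 with saracatinib. Of 5 remaining kinases of the SRC family, FRK was the 1 tested. FRK averaged 6.81 in VAV1 cells with saracatinib, 6.89 in VAV1 cells with vehicle and 6.76 in empty-vector cells, and it did not pass in any comparison.

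Markers of other cell types were followed beside these genes. The summed normalized counts of the 5 epithelial markers with a value lay between 8232 and 8643 in VAV1 cells with saracatinib, 13181 and 14144 in VAV1 cells with vehicle, and 6391 and 7251 in empty-vector cells with vehicle. They lay between 6495 and 7229 in RAC1 P29S cells and between 3433 and 3885 in untreated empty-vector cells. The sum was mostly KRT18, while CDH1, which encodes E-cadherin, averaged 2.31 to 3.33 normalized counts per group. KRT8 and KRT18 rose with VAV1 and with RAC1 P29S and fell with saracatinib, as CAV1 did. KRT14 fell by 1.28 with VAV1 (SE 0.21) and by 0.47 with RAC1 P29S (SE 0.12) and differed by 0.07 ± 0.21 with saracatinib, and CLDN4 fell by 1.08 with VAV1 (SE 0.11). Their part in the CAV1 result was not tested.

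Of the 3 haematopoietic markers tested, CD68 rose by 1.21 ± 0.06 with VAV1, LAPTM5 fell by 0.73 (SE 0.22), and CORO1A at -0.39 ± 0.16 did not pass. PTPRC, the defining leukocyte gene, averaged 4.40 to 9.05 normalized counts per group. The summed counts of the list were mostly CD68, which averaged 2449 normalized counts in VAV1 cells with saracatinib, 1136 in VAV1 cells with vehicle and 489 in empty-vector cells with vehicle. The haematopoietic sum lay between 2527 and 2761 in VAV1 cells with saracatinib, 1369 and 1473 in VAV1 cells with vehicle, and 844 and 895 in empty-vector cells with vehicle. It lay between 1154 and 1367 in RAC1 P29S cells and between 560 and 686 in untreated empty-vector cells, and its part in the LYN result was not tested. Summed fibroblast markers lay between 401 and 464, 438 and 510, and 396 and 461 in VAV1 cells with saracatinib, VAV1 cells with vehicle and empty-vector cells with vehicle, in that order. Fibroblast sums were 218 to 288 in RAC1 P29S cells and 148 to 255 in untreated empty-vector cells, and endothelial sums were at most 116 in any library.

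The nearest profiles over the 9 vehicle and saracatinib libraries were found by Euclidean distance between mean-centred log2 values, for the 6 genes whose group means spanned at least 0.5. CAV1 was nearest to MYO10, which encodes an unconventional myosin of filopodia, at a distance of 0.20 (Pearson r = 0.997 over 9 libraries that fall into 3 groups). MYO10 averaged 8.74 in VAV1 cells with saracatinib, 10.14 in VAV1 cells with vehicle and 8.11 in empty-vector cells. In the untreated libraries, which did not enter the choice, MYO10 averaged 10.56 in RAC1 P29S cells and 8.63 in empty-vector cells, at a distance of 0.21 from CAV1 over 6 libraries. SCARA3 and SNAPC1 came next to CAV1, at 0.34 and 0.37. SRC was nearest to CPS1 (0.13), CSK to ABCF2 (0.14), PXN to RNF44 (0.15), PTK2B to KIAA0556 (0.32) and FYN to ZNF37BP (0.37). Over the 6 untreated libraries the distances were 0.95 for CPS1, 0.32 for ABCF2, 0.36 for RNF44, 1.98 for KIAA0556 and 0.96 for ZNF37BP. SCARA3 lay at 0.36 and SNAPC1 at 0.95 from CAV1. Each gene was chosen for its small distance over the 9 libraries, so a larger one outside that choice is likely. Distances over 9 and over 6 libraries add up unlike numbers of libraries and are not on the same scale.

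The remaining 8 genes lie in GRCh38, by GENCODE release 29, as follows. SRC lies on chromosome 20 from 37344685 to 37406050, and YES1 on chromosome 18 from 721588 to 812546. FYN lies on chromosome 6 from 111660332 to 111873452, CSK on chromosome 15 from 74782057 to 74803198 and BCAR1 on chromosome 16 from 75228187 to 75268053. LYN (55879813 to 56014168), PTK2 (140657900 to 141002216) and PTK2B (27311482 to 27459391) lie on chromosome 8. All 10 are protein-coding. YES1 has a processed pseudogene on chromosome 22 and BCAR1 has 2 on chromosome 15, whose reads could be shared with their parent genes, and BCAR1 shares 788 exonic bases with the transcript AC009078.3 on its own strand.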

How the data were processed

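Total RNA of 15 A375 libraries was prepared with Illumina TruSeq, per the labels' protocols. The deposited files hold 1 log2 value per gene symbol, which from its range is the log2 of a normalized count plus 1. The submitters' processing notes name kallisto, DESeq2 and GRCh38; versions, settings and annotation release are not given in the sources used here. Read depth is unknown, so no counting interval is given. The experiments were normalized separately, and no level was tested between them.

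Samples were grouped by title. Genes reaching 10 normalized counts in 3 or more libraries entered limma 3.58.1 in R 4.3.3: 1 mean per group, empirical Bayes with trend and robust estimation, two-sided, Benjamini-Hochberg adjustment over all genes tested. The 9 vehicle and saracatinib libraries shared 1 fit and the 6 untreated libraries another. For the difference of effects, 1 fit held all 15 libraries, over genes that passed in both experiments. The script was tested on simulated data. Its pass mark for recovered changes was lowered after the RAC1 P29S comparison missed the first mark. No reported value depends on that mark.

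The 10 genes, the companion lists and the rules were chosen with earlier results of these data known. Named companions are up to 4 per list and comparison with the smallest adjusted p. Some are also given in comparisons where they are not among those 4, as SRCIN1 is with VAV1. PTPRA and the single markers were named after their values were seen. The nearest profiles are those at the smallest distance. Motifs were searched in the window of every RefSeq start of a gene. Alternatives covered 4 scalings, 2 filters, 2 pseudocounts, other limma fits, blocking on replicate number, testing against 1.5-fold, and omission of each library.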

Additional observations from a re-analysis of the deposited data

Results flagged for a closer look

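PXN differed between the transgenes by the test of the difference itself: the VAV1 effect minus the RAC1 P29S effect was -0.54 on the log2 scale (limma adjusted p = 7.35e-05), with PXN lower in 3 of 3 VAV1 libraries and higher in 3 of 3 RAC1 P29S libraries than in every library of their own empty vector. Vehicle was present only in the VAV1 experiment, in both of the groups compared, and the experiment and the transgene cannot be told apart.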

How the results depend on the processing

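Of the fold changes of the 10 genes recomputed under alternatives, 1030 kept direction and side of the threshold, 42 lost their call, 13 gained one and 10 changed sign. Tested against a fold change of 1.5, limma called 1 of the 10 genes with VAV1, 1 with saracatinib, 0 for VAV1 with saracatinib against the empty vector, 1 with RAC1 P29S and 0 for the difference of effects, and 1171, 488, 897, 801 and 99 of all genes in that order; the calls that held were those of CAV1. Under total-count, upper-quartile, quantile and recomputed median-of-ratios scaling the difference of effects passed for 2 of the 10 genes, SRC and PXN. Upper-quartile scaling gave 846 genes higher and 1259 lower there, against 1124 and 1064. Leaving out 1 library gave 1 to 2 genes for it, 6 with VAV1, 6 to 8 with saracatinib, 5 to 7 for VAV1 with saracatinib against the empty vector and 5 to 7 with RAC1 P29S.

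Sign changes came from leaving out 1 library, none of them a call. PTK2B ranged from -0.25 to 0.069 with VAV1, from -0.89 to 0.34 with RAC1 P29S and from -0.44 to 0.79 for the difference of effects, and FYN from -0.35 to 0.19 for the difference. The cause was not tested. PTK2B could not be fitted under the minimum of 50 normalized counts.

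Same-numbered libraries correlated at -0.05 to 0.01 in their deviations from the group means, 0 of 12 pairs over 0.1. Of 15 libraries, 1 correlated best with its own number. No pairing by number was seen, which does not show that same-numbered cultures were handled apart. With a replicate block, 6, 8, 7, 6 and 1 of the 10 genes passed, in the order above, against 6, 7, 7, 6 and 1. Precision is limited by 3 libraries per group and unknown depth.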
